A study of Drosophila melanogaster with 6 samples.

Results

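The 10 genes described here lie near one another on the X chromosome of Drosophila melanogaster, in the stretch bounded by mRpL16 and trol, and were picked because their ratios between 2 cell lines lay on one side. They are Edem1, Rbcn-3B, Ocrl, CG4281, CG4199, Rtca, CG16903, Unc-76, bcn92 and CG3457, in the order of the RefSeq annotation, and make up 10 of the 2216 named genes and 10 of the 369 X genes tested. They were found by gene symbol. Since the ratios themselves led to the choice, the ratios of the 10 genes are a description, and no test is given for them. The only test on them is of the difference between dye orientations, a contrast that did not enter the choice.

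The study compared RNA of Kc167 and SL2, established lines derived from fly embryos, Kc167 being regarded as female and SL2 as male. Both lines were untreated and grown densely at 22 °C, Kc167 in Schneider's medium supplemented with 5% fetal bovine serum but SL2 in CCM3 without serum named, each with gentamicin, so that line and medium cannot be told apart. Each of 6 arrays of spotted cDNA clones was hybridised with cDNA of both lines, one in each dye. On 3 arrays Kc167 carried Cy5 and SL2 carried Cy3, and on the other 3, called flipped, the dyes were exchanged. Same-numbered arrays of both orientations were averaged into n = 3 replicates, and nothing in the labels says that these came from separate cultures. Each line is a single cell population, so the values speak of these 2 lines and not of female and male flies.

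Values are log2 ratios of SL2 over Kc167. The labels state neither this direction nor the base of the logarithm: SL2 comes first in the titles, which makes the direction likely, and a base of 2 was assumed. "The SL2 side" means above 0. If the ratio ran the other way, every sign would turn, and with natural logarithms every fold would be larger. The ratios are of steady-state RNA, and a ratio gives no level in either line. The hemocyte markers Pxn and NimC1 had ratios of 1.65 and 0.80, and Ppn and Pvr had -1.14 and -0.43, but a ratio cannot show whether a marker is present or absent. Precision is limited by how few arrays there are. The flipped array of replicate 1 stood apart: across the 7201 features its correlation with the arrays of the other orientation was 0.64 to 0.73, against 0.78 to 0.83 for the other flipped arrays.

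In flies, genes that lie side by side on a chromosome are often expressed alike even when their products have unrelated roles. The X chromosome also has its own regulation, since the dosage compensation complex of male cells raises its transcription. The genes of the set with known roles act in different pathways. Edem1, Rbcn-3B and Ocrl act in the membrane system: Edem1 belongs to the lectin-like family that sends misfolded glycoproteins of the endoplasmic reticulum to degradation, Rbcn-3B encodes a rabconnectin subunit needed for the proton pump that acidifies endosomes, and Ocrl encodes a phosphoinositide phosphatase of endosomal traffic. Rtca encodes the RNA 3'-terminal phosphate cyclase, Unc-76 an adaptor of the motor protein kinesin, and bcn92 a small LYR-motif protein related to a factor of iron-sulphur cluster assembly. The other genes of the set, CG4281, CG4199, CG16903 and CG3457, are known here by number.

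The median ratio of the 10 genes was 0.87 ± 0.05 (SD of the replicate medians, n = 3), beside -0.02 over all 7201 features and -0.09 over the 349 X genes outside the stretch. Their ratios ran from 0.22 for CG4281 to 2.03 for CG3457. On single arrays the median of the set lay between 0.62 and 1.04, and all 10 genes were above 0 on 5 of the arrays. On the flipped array of replicate 1, 8 of 10 were. Of the 10 genes, 8 were above 0 on all 6 arrays, beside 23.1% of all features, and 4 reached 2-fold on the SL2 side, beside 2.99%. The fit across all features would call 9 of them on the SL2 side, where it called 28.4% of features on that side and 60.2% in either direction. As the genes were picked on this contrast, nothing is read from these counts.

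**Figure D1:**
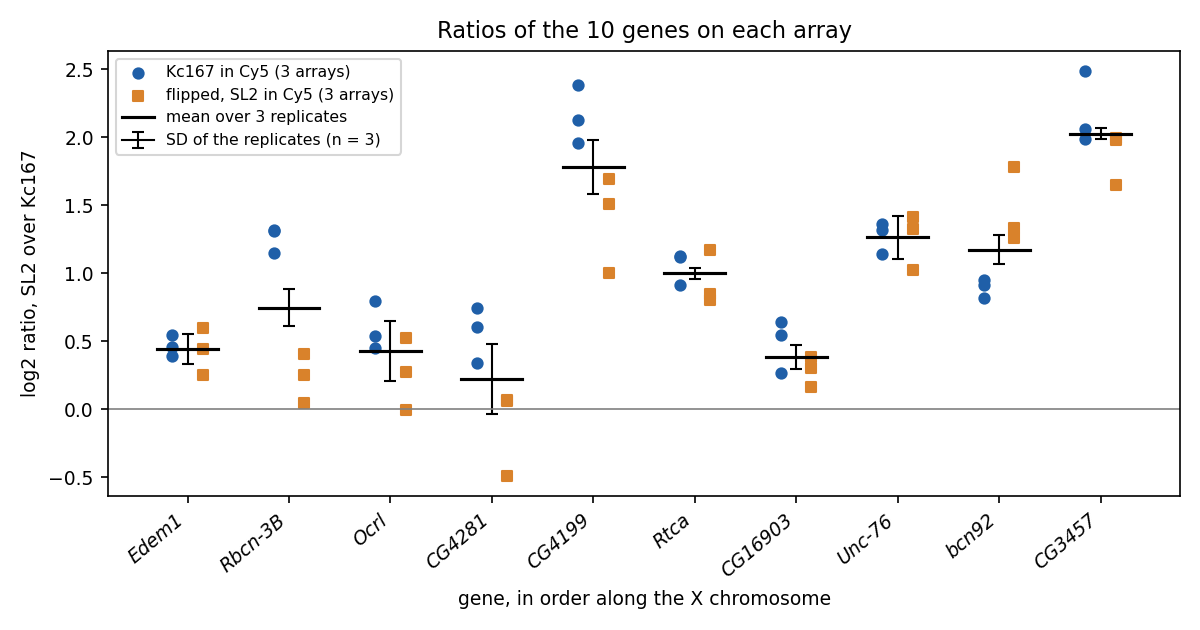
Log2 ratio of SL2 over Kc167 (vertical axis) of the 10 genes in order along the X chromosome (horizontal axis), with 1 point per array by dye orientation, the mean over 3 replicates as a bar and the SD of the replicates as whiskers. CG3457 and CG4199 lie highest, with means of 2.03 and 1.78, the orientations of Rbcn-3B, CG4281, CG4199 and bcn92 do not overlap, and CG4281 has a flipped array at -0.49.

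CG3457 had the highest ratio of the set. With Kc167 in Cy5 its arrays gave 1.98, 2.06 and 2.49, and the flipped arrays 1.98, 1.997 and 1.65. All arrays were far above 0 and the orientations overlapped. Its mean was 2.03 ± 0.04 (SD, n = 3), or 4.07-fold, which placed it at rank 2 among the X genes and rank 6 among all named genes. The SD over the 3 arrays of an orientation was larger, 0.27 with Kc167 in Cy5 and 0.20 when flipped. CG4199 followed with 2.12, 2.38 and 1.96 in the first orientation and 1.004, 1.51 and 1.70 in the flipped one. Every flipped array was lower than every array with Kc167 in Cy5. The mean of CG4199 was 1.78 ± 0.20 (SD, n = 3), or 3.43-fold, at rank 4 among the X genes.

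Unc-76, the kinesin adaptor gene, was the only one of the set with more than 1 clone. Its arrays gave 1.14, 1.36 and 1.32 with Kc167 in Cy5 and 1.02, 1.33 and 1.41 when flipped, with a mean of 1.26 ± 0.16 (SD, n = 3), or 2.40-fold. The orientations overlapped. Its 2 clones, which are not neighbours in the order of spot identifiers, had means of 1.38 and 1.15, and both were above 0 on all 6 arrays. bcn92, the LYR-motif gene, gave 0.82, 0.95 and 0.91 with Kc167 in Cy5 and 1.78, 1.26 and 1.33 when flipped. It was the only gene of the set with higher flipped arrays, and the orientations did not overlap. Its mean was 1.17 ± 0.11 (SD, n = 3), or 2.26-fold.

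Rtca, the RNA cyclase gene, had even ratios across arrays: 0.91, 1.13 and 1.12 with Kc167 in Cy5, and 1.17, 0.85 and 0.81 when flipped. Its mean of 0.999 ± 0.04 (SD, n = 3) stands for 1.998-fold. The SD over the 3 arrays of an orientation was larger here too, 0.12 with Kc167 in Cy5 and 0.20 when flipped. The RefSeq spans of Rtca and CG4199 overlap, so a clone from the shared piece would take up cDNA of both genes. The sequences of the clones were not used here. The ratio of CG4199 was the higher of the pair on 5 of the 6 arrays, with 1.004 against 1.17 on the flipped array of replicate 1.

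The 3 genes of the membrane system had smaller means over both orientations than the 5 genes above. With Kc167 in Cy5 this did not hold for Rbcn-3B, whose mean of 1.26 was above those of Rtca (1.06) and bcn92 (0.89). Rbcn-3B, the rabconnectin gene, gave 1.15, 1.31 and 1.32 with Kc167 in Cy5 but 0.05, 0.25 and 0.41 when flipped. The orientations lay far apart, so that its mean of 0.75 ± 0.14 (SD, n = 3), or 1.68-fold, stands for neither. Edem1, the glycoprotein degradation gene, gave 0.46, 0.54 and 0.39 in the first orientation and 0.25, 0.59 and 0.44 in the flipped one. These arrays overlapped, and the mean was 0.45 ± 0.11 (SD, n = 3), or 1.36-fold. Ocrl, the phosphoinositide phosphatase gene, gave 0.45, 0.79 and 0.54 with Kc167 in Cy5 and -0.001, 0.53 and 0.27 when flipped. One flipped array thus showed no difference between the lines, and the mean was 0.43 ± 0.22 (SD, n = 3), or 1.35-fold.

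CG16903 and CG4281 had the smallest mean ratios. CG16903 gave 0.27, 0.64 and 0.54 with Kc167 in Cy5 and 0.31, 0.16 and 0.39 when flipped, with a mean of 0.38 ± 0.09 (SD, n = 3), or 1.31-fold. All 6 arrays were above 0. CG4281 gave 0.34, 0.75 and 0.61 in the first orientation and -0.49, 0.07 and 0.06 in the flipped one. Its flipped arrays did not lie on the SL2 side as a group: their mean was -0.12 ± 0.32 (SD of 3 arrays), against 0.56 ± 0.21 with Kc167 in Cy5. The mean of 0.22 ± 0.26 (SD, n = 3) was smaller than its own spread, and only the arrays with Kc167 in Cy5 lay clearly above 0.

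Ordered by the mean of both orientations, the averages of same-numbered arrays separated some of the genes, but this order did not hold within each orientation. Replicate values depend on which arrays are averaged, and no deviation shared by number was seen, so the separations below hold for this pairing only. The replicate values of CG3457 (1.98 to 2.07) did not overlap those of CG4199 (1.56 to 1.95), and these did not overlap those of Unc-76 (1.08 to 1.36). Unc-76 and bcn92 (1.10 to 1.30) could not be ranked, while Rtca (0.96 to 1.04) and then Rbcn-3B (0.60 to 0.86) lay below them without overlap. Edem1, Ocrl, CG16903 and CG4281 came last with overlapping replicates between each and the next, and those of Ocrl (0.22 to 0.66) also overlapped those of Rbcn-3B. With Kc167 in Cy5, CG3457 and CG4199 had overlapping arrays and means of 2.18 and 2.15, and every array of Rbcn-3B lay above every array of Rtca and bcn92. On the flipped arrays the mean of bcn92 (1.46) was above that of CG4199 (1.40).

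The ratios did not rise or fall steadily along the chromosome, although CG3457, the highest of the set, was also its last gene in order. Between mRpL16 and CG3457, the median absolute difference between a measured gene and the next was 0.61 over 13 pairs, beside 0.44 over the 368 successive pairs of all measured X genes. The widest step was 1.56, from CG4281 to CG4199, with 2 annotated genes between them. The closest pair of this piece was Sik2 and CG4281, which differed by 0.03. CG16903 and Unc-76 are direct neighbours in the annotation and differed by 0.88. The mean ratios were thus on one side of 0 but of different sizes.

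The whole stretch from mRpL16 to trol holds 98 annotated genes, 82 of them protein-coding, of which 20 were measured here under a single symbol. Between the bounds lay 18 measured genes, the 10 of the set and 8 others. Both bounding genes were on the SL2 side, mRpL16, a gene of the large mitochondrial ribosomal subunit, with 1.30 ± 0.10 and trol, the perlecan gene, with 0.54 ± 0.16 (SD, n = 3). mRpL16 was above 1 on all 6 arrays, from 1.06 to 1.497, and of the 10 genes CG3457 and CG4199 had a higher mean.

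Among the 8 others, limma's test with Benjamini-Hochberg adjustment across the 7201 features put 5 on the SL2 side, beside 28.4% of all features, and 0 on the Kc167 side, beside 31.8%, where 1 gene, CG3078, had an unadjusted p under 0.05. Their median ratio was 0.21. They are what the choice of the 10 genes left over, so their count is a description as well. Within the piece from Edem1 to CG3457 lie 3 of them. moody, a G protein-coupled receptor gene known from barrier-forming glia, had 0.99 ± 0.30 (SD, n = 3; limma adjusted p = 2.2e-05), with arrays from -0.06 to 1.48. eIF2Bepsilon, which encodes a subunit of the exchange factor of translation initiation, had 0.22 ± 0.09 (adjusted p = 0.020), and the kinase gene Sik2 had 0.20 ± 0.07 (adjusted p = 0.027). eIF2Bepsilon and Sik2 thus lay just under CG4281, the lowest gene of the set, and were above 0 on all 6 arrays, which CG4281 was not. The mean of moody was 1.31 with Kc167 in Cy5 and 0.67 when flipped. Those of eIF2Bepsilon were 0.24 and 0.20, and those of Sik2 0.09 and 0.31.

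Beyond CG3457 the ratios dropped and were mixed. The next measured gene, CG3078, had -0.16 ± 0.08 (SD, n = 3; limma adjusted p = 0.059), 2.19 lower than CG3457, with 14 annotated genes between them. Of the 6 measured genes after CG3457 up to trol, temp (0.38 ± 0.22), CG2854 (0.40 ± 0.14) and trol passed on the SL2 side, with adjusted p = 0.0037, 0.0011 and 0.00019. The mean of temp was 0.69 with Kc167 in Cy5 but 0.07 when flipped, with a flipped array at -0.40. CG2854 (0.28 and 0.53) and trol (0.46 and 0.63) had the higher mean when flipped. CG3078, PsGEF (-0.16 ± 0.15) and boi (-0.11 ± 0.07) did not pass. The median of the 14 measured genes from mRpL16 to CG3457 was 0.87, and that of the 6 after it was 0.14. Another clone of the stretch carries several symbols and was left unnamed; it had a mean of 0.07, from -0.12 to 0.25.

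**Figure D2:**
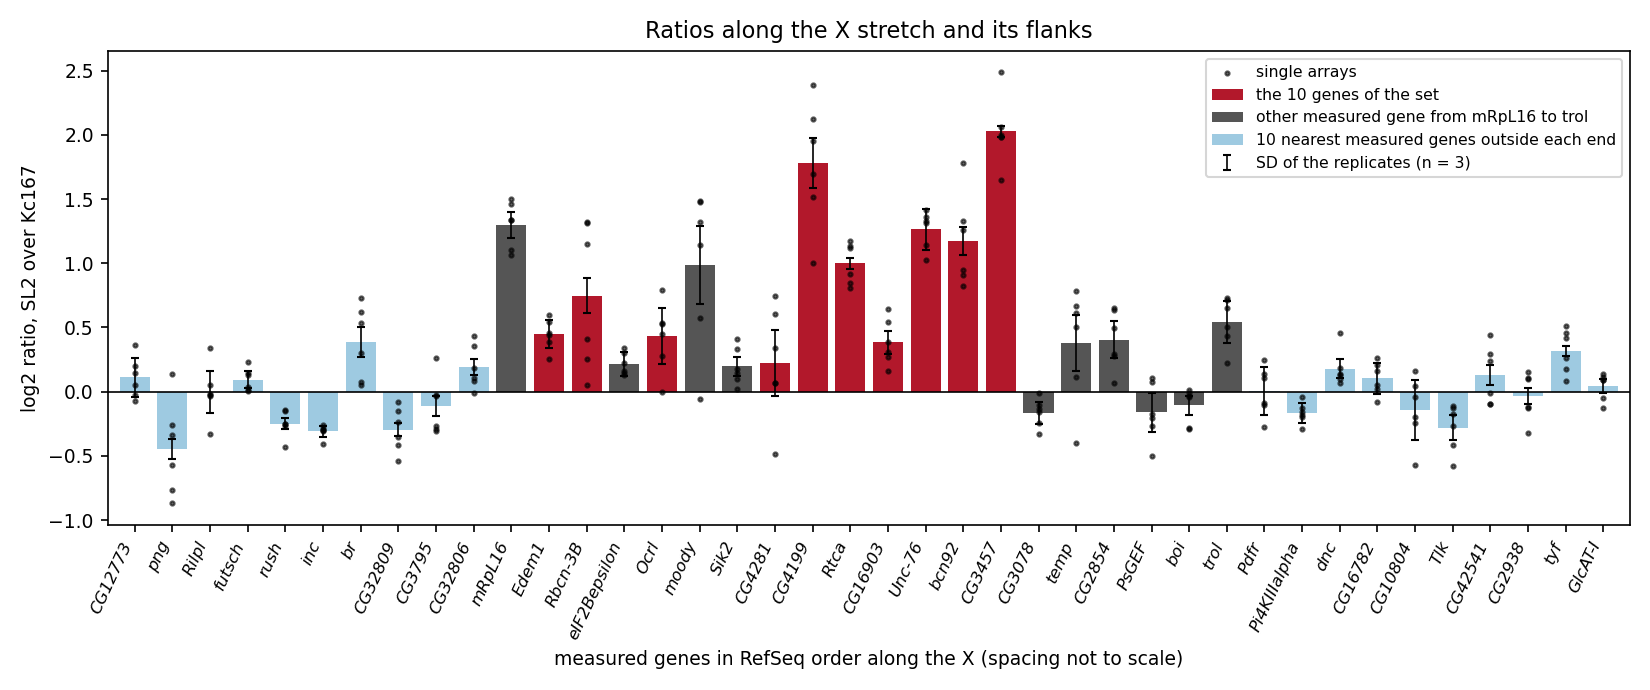
Mean log2 ratio of SL2 over Kc167 (vertical axis) for measured genes in RefSeq order along the X (horizontal axis, not to scale): the 10 genes, the other measured genes from mRpL16 to trol, and the 10 nearest measured genes outside each end. Dots are single arrays and whiskers the SD of the replicates (n = 3); all 14 bars from mRpL16 to CG3457 point up, while the flanks go both ways between -0.45 and 0.38.

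Outside the bounds the ratios were small. The 10 nearest measured genes before mRpL16 had a median of -0.06, and 2 passed on the SL2 side against 4 on the opposite side. Of the 5 nearest, CG32806 had 0.19 (limma adjusted p = 0.029) and br, an ecdysone-induced transcription factor gene, 0.38 (adjusted p = 0.0011). The mean of br was 0.63 with Kc167 in Cy5 but 0.14 when flipped, while CG32806 had 0.20 and 0.18. On the Kc167 side were inc with -0.31 (adjusted p = 0.0023) and CG32809 with -0.30 (adjusted p = 0.0030), and CG3795 had -0.11 (adjusted p = 0.18). The 10 nearest after trol had a median of 0.02, and 2 passed on the SL2 side against 1 on the opposite side. Among the first 5 of these, dnc, the gene of a cAMP phosphodiesterase, passed with 0.18 (adjusted p = 0.041). Pdfr, the receptor gene of the neuropeptide PDF, had 0.004, CG16782 0.10, CG10804 -0.14 and the lipid kinase gene Pi4KIIIalpha -0.17, none of which passed. None of these 20 flanking genes reached the median of the 10 genes.

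Runs of neighbouring genes with 1 sign put the stretch in context. From CG32806, the gene before mRpL16, to CG3457, 15 successive measured genes had mean ratios above 0, with a median of 0.75. This was the longest run of 1 sign on the arms X, 2L, 2R, 3L and 3R; the next longest held 11 genes, 2 of them on 2L above 0 with medians of 0.20 and 0.27 and 1 on 2R below 0 with -0.44. In windows of 10 successive measured genes, the median reached 0.99 in the window from Ocrl to CG3457, the highest of 2155 windows together with the next window along. The highest window elsewhere, on 2L from CG13384 to CG31886, had 0.86. With windows of 5 genes, the highest over the stretch (1.17, from CG4199 to bcn92) was at rank 3 of 2180, behind a window on 3R from Obp99a to kay with 1.19. With windows of 20 genes, the one from mRpL16 to trol ranked first of 2105 with 0.44. These ranks describe the contrast that led to the choice and carry no test, and most genes of the genome were not measured under a name.

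**Figure D3:**
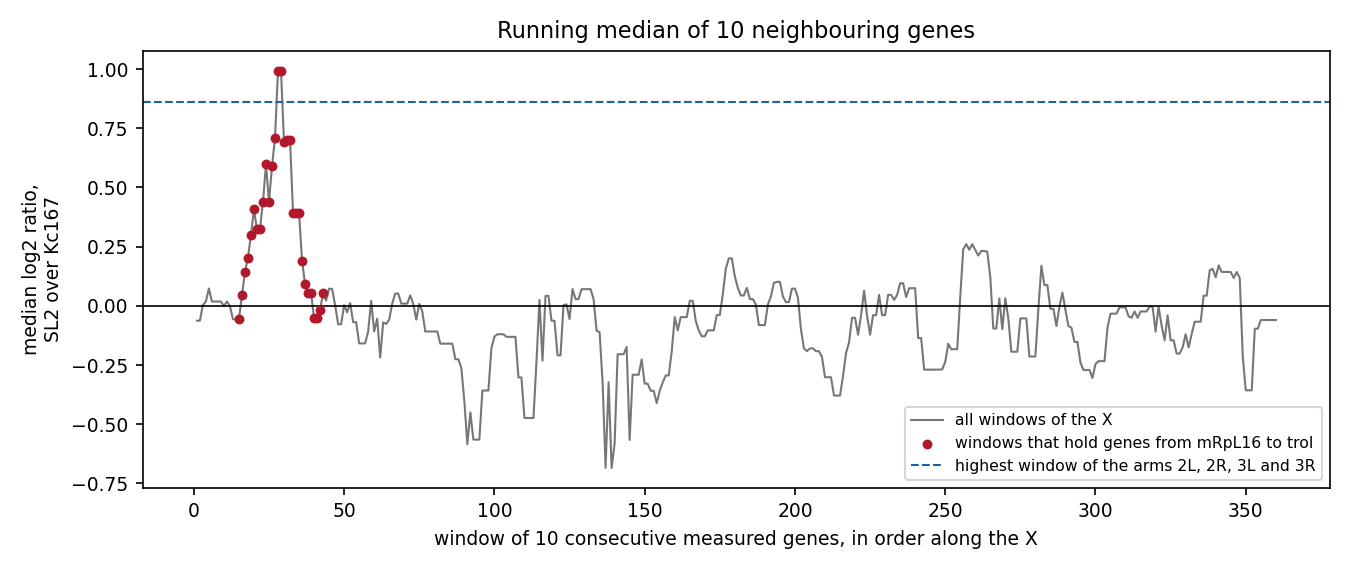
Median log2 ratio of SL2 over Kc167 (vertical axis) in windows of 10 consecutive measured genes, in order along the X (horizontal axis). Red points mark windows with genes from mRpL16 to trol, which peak at 0.99, and the dashed line marks 0.86, the highest window of the other 4 arms.

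The dye orientations gave different ratios for part of the set. By limma on the flipped minus the other array within the 3 same-numbered pairs, adjusted over all features, 3 of the 10 genes differed, beside 9.46% of all features. All 3 had the lower ratio when flipped, beside 3.81% of features in that direction, and 0 of the 10 genes passed with the higher one, beside 5.65%, where bcn92 had an unadjusted p of 0.0063 in this fit. Rbcn-3B had a difference of -1.02 ± 0.13 (SE, n = 3; adjusted p = 0.0095), CG4199 of -0.75 ± 0.18 (adjusted p = 0.033) and CG4281 of -0.68 ± 0.13 (adjusted p = 0.021). Each was negative in all 3 pairs. The share of features with orientation ranges that do not overlap was 36.1%, and 4 of the 10 genes were among them, so such separation was about as frequent in the set as elsewhere.

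bcn92 had 0.56 ± 0.16 (SE, n = 3; limma adjusted p = 0.057), the opposite sign, and did not pass in this fit. In a limma fit of the 6 arrays with no replicate number it passed (adjusted p = 0.039), as it did without replicate 3 (adjusted p = 0.024). Ocrl had -0.33 ± 0.13 (adjusted p = 0.14), CG3457 -0.30 ± 0.18 (adjusted p = 0.30) and CG16903 -0.20 ± 0.15 (adjusted p = 0.40). Those of Rtca (-0.11), Edem1 (-0.03) and Unc-76 (-0.02) were smaller than their standard errors of 0.16, 0.14 and 0.13. In all, 9 of the 10 differences were below 0, beside 53.3% of features. The median of the set was 0.97 with Kc167 in Cy5 and 0.69 when flipped. With flipped arrays alone, Rbcn-3B, Ocrl and CG4281 would not be called between the lines, and the other 7 would. That fit called 3655 of the 7201 features, 1736 of them on the SL2 side. The 10 genes were picked on the contrast between the lines, so nothing is read from their count. The differences between orientations depend on normalisation, the variance model and single replicates. With arrays scaled to the same spread or quantile-normalised, CG4199 did not pass (adjusted p = 0.093 and 0.11) and bcn92 did, in the opposite direction (adjusted p = 0.031 and 0.033), while Rbcn-3B and CG4281 passed. With limma's trend and robust options, without pooling of variance, without replicate 1 or without replicate 2, 0 of the 10 passed, with 5, 3, 4 and 4 at an unadjusted p under 0.05. Without the flipped array of replicate 1 only Rbcn-3B passed (-0.93; adjusted p = 0.020).

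**Figure D4:**
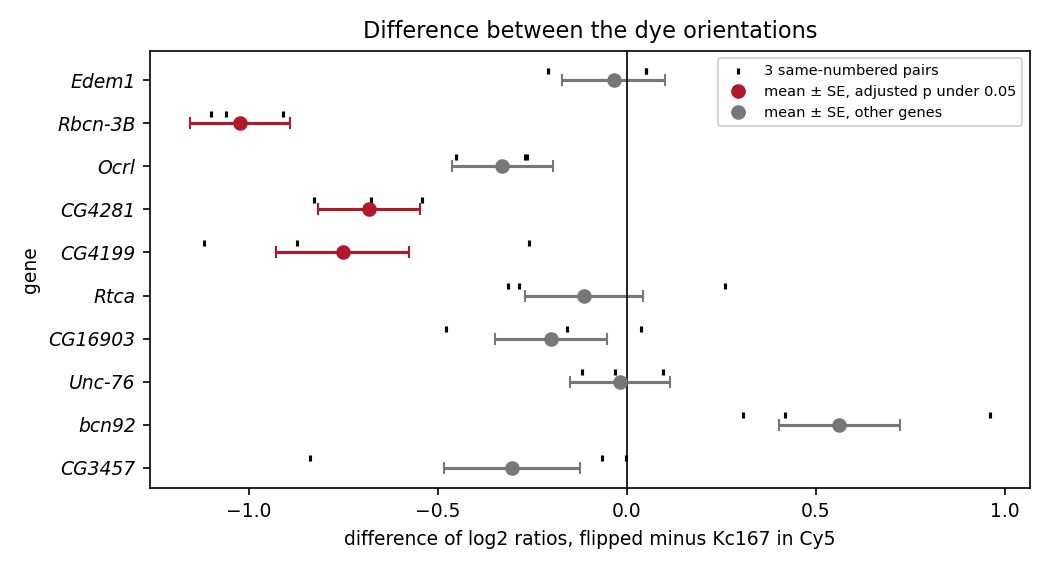
Difference of log2 ratios, flipped minus Kc167 in Cy5 (horizontal axis), for the 10 genes (vertical axis), with the mean and SE over 3 same-numbered pairs and a tick for each pair. Rbcn-3B, CG4281 and CG4199, in red, had an adjusted p under 0.05, and bcn92 is the only gene to the right of 0.

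Place in the printing order was also compared, with the order of the spot identifiers taken as the printing order. Coordinates on the slide were not used. The 11 clones of the set were spread over the printing order, with successive ones at least 30 and in the median 575.5 clones apart. The 24 clones nearest to each in printing order had median ratios between -0.21 and 0.17. With these subtracted, the median of the set was 1.003 and all 10 genes were above 0. Around Rbcn-3B the neighbouring clones had 0.05 with Kc167 in Cy5 and -0.30 when flipped, and with them subtracted its difference between orientations was -0.68 (limma adjusted p = 0.033). The 2 spots of a clone differed by 0.01 to 0.28 in their mean ratios, and 11 of the 12 spot values were present for Rbcn-3B and CG3457 and all 12 for the other clones.

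Genes elsewhere were also ranked by likeness to the mean profile of the set, so that ratios near that profile follow from the choice. By Euclidean distance over the 6 arrays, the 5 named genes nearest to the mean profile of the set were sm, Gfat2, Pgm2b, Agpat2 and pelo, at distances of 0.32 to 0.36 and with mean ratios of 0.88, 0.86, 0.88, 0.93 and 0.93. They lie on 2R, 3R, 2R, 2L and 2L, so none is a neighbour of the set. Within the set, the nearest pair was Edem1 and Ocrl, at a distance of 0.43. The 6 arrays repeat 1 comparison, so this likeness is one of size and of dye behaviour and says nothing of shared control.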

How the data were processed

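Per the labels, spot quantification used the adaptive algorithm of QuantArray version 3, and no background was subtracted. The deposited log2 ratios were derived by the authors from normalised data, per the labels; how they were normalised, the log base and the direction are not stated in the sources used here. Array medians lay between -0.024 and 0.002. Per the labels, 80 µg of RNA went into each labelling and hybridisation lasted 16 h. Intensities were not used, so signal over background is unknown, and 15104 to 16844 of 16896 spots had values per array.

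The 2 spots of a clone, taken as those with successive identifiers, were averaged (r = 0.97 across clones), then clones of a gene. Of 5818 annotated spots, 5666 had 1 symbol and 152 several; the other 11078 are unnamed here. All 5666 matched a RefSeq gene table (assembly Release 6 plus ISO1 MT) by Entrez identifier; it was used only for names and gene order. Features needed values on all 6 arrays: 7201 remained, 2216 of them named genes. limma 3.58.1 in R 4.3.3 (lmFit, eBayes) tested n = 3 values against 0, two-sided, with Benjamini-Hochberg adjustment and a threshold of 0.05: same-numbered arrays averaged for the lines, and subtracted for the orientations. With 2 residual degrees of freedom, limma's prior contributed 7.57 and 7.18. The fit for the lines was tested on simulated averaged ratios, and the orientation differences were not simulated. Figures used matplotlib 3.10.9.

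The members, lists and tests were chosen with earlier results of these data known. Named genes are the 10 genes, mRpL16 and trol, the other measured genes between them, the 5 nearest on each side and the 5 most alike by distance; genes named as ends of windows or runs and the hemocyte markers fall outside it, the former picked once their values were known and the latter taken from a marker list. Promoter and protein sequences were planned but not analysed here. Alternatives covered normalisation, clones, missing arrays, printing position, orientations, variance model, the replicate number as a block and leaving out each replicate; leaving out only the flipped array of replicate 1 was chosen after seeing the data, as were several settings for the orientation test and the set's counts.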

Additional observations from a re-analysis of the deposited data

Results flagged for a closer look

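Of the 10 genes, 3 had ratios that differed between the dye orientations by limma's adjusted p, flipped minus Kc167 in Cy5: Rbcn-3B by -1.02, CG4199 by -0.75 and CG4281 by -0.68. For CG4281 the orientations also had means of opposite sign, 0.56 and -0.12. The groups of 3 arrays are too small for a check of single outlying arrays.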

How the results depend on the processing

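The median ratio of the 10 genes, 0.87, was 0.97 with Kc167 in Cy5 alone, 0.69 with flipped arrays alone and 1.003 with the printing-order median subtracted; without each replicate in turn it ran from 0.85 to 0.90. Of 160 ratios of single genes under alternatives, 159 were above 0, and the exception was CG4281 with flipped arrays alone, at -0.12. Many of the 160 could not differ from the main value. The variance model, the replicate number in the fit, the median over clones and the rule for missing arrays left each of these ratios unchanged. The count is therefore no measure of how firmly the signs hold. Between 6 (no pooling of variance) and 10 of the genes would be called between the lines. Of the 7201 features, 938 were called on the SL2 side without pooling and 2043 in the main fit. As the genes were picked on this contrast, their counts are a description. The stretch from mRpL16 to trol had a median of 0.44, and 0.58 with Kc167 in Cy5 alone; without each replicate it ran from 0.42 to 0.50.

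Features that differed between the lines numbered 4332, and 1926 without pooling of variance; without each replicate they ran from 3809 to 4014. Those that differed between orientations numbered 681, but 228 with the printing-order median subtracted, 296 without the flipped array of replicate 1, and 0 with trend and robust options or without pooling, where 2181 and 1146 had an unadjusted p under 0.05. Without each replicate in turn they ran from 1 (without replicate 1) to 994 (without replicate 3). Of the 10 genes, 3 differed between orientations, and 1, 1, 0 and 0 under these same 4 settings; without each replicate it ran from 0 to 4. The count was also 3 with scaled or quantile-normalised arrays, but there bcn92 passed and CG4199 did not. Causes of these shifts were not tested. Each fit without a replicate had 1 residual degree of freedom.

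With the replicate block in a fit of 6 arrays, 4277 features differed between the lines and 681 between orientations. All 10 genes would then be called between the lines, CG4281 included, which is a description, as this contrast led to their choice. Without a replicate number, 4375 features differed between the lines and 877 between orientations. Same-numbered arrays had correlations of deviations of -0.07, 0.11 and -0.10, and other arrays of opposite orientation had -0.18 to 0.20. No deviation shared by number was thus seen. Whether the numbers pair samples cannot be told from these values. Dim spots could not be set apart.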
